A study of Drosophila melanogaster with 46 samples.

Results

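The 300 regions described here were the most variable regions of open chromatin across libraries of inbred fly lines. The main pattern shared across the libraries had been set aside, and line names were not used. The 300 were chosen from 30774 regions by their read counts over 31 ATAC-seq libraries. Counts were turned into log2 CPM, the log2 of the share of a library's counts (CPM), with a prior count of 2. Of all regions, 20805 had a mean of at least 3 log2 CPM, and 12052 of these had an absolute Pearson correlation below 0.4 with the reference region 2L:17560215-17560935, which ran from 1.43 to 7.66 log2 CPM. The 300 of largest standard deviation (SD) over the 31 libraries were taken. The SD therefore chose the members and is given as a description, as is every count that rests on the total spread over these libraries.

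The libraries came from eye-antennal discs, the larval tissue that gives rise to the eye and antenna, dissected by hand from wandering larvae of the Drosophila Genetic Reference Panel (DGRP). DGRP lines are inbred strains founded from wild females of a single population, and no treatment, transgene or reporter is given for the libraries used here. Of 23 lines, 8 had 2 libraries each (DGRP_25208, DGRP_28123, DGRP_28260, DGRP_28262, DGRP_28265, DGRP_28275, DGRP_29652 and DGRP_55031) and 15 had 1. The title of 15 libraries ends in IR, a suffix whose meaning the labels do not give, and each line with 2 libraries had 1 of each kind. Replicate 1 of these lines was the library without the suffix. The labels do not say whether the libraries of a line came from separate dissections, so the p-values below rest on a spread between libraries that may be technical.

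ATAC-seq uses a transposase that inserts sequencing adapters where DNA is not wrapped in nucleosomes, so that read counts over a region follow how accessible it is. Accessible regions away from gene starts are often enhancers, which bind transcription factors and set where a gene is active. Inbred lines carry different alleles in a fixed state, and a locus at which a DNA difference goes with a difference in accessibility is called a chromatin accessibility QTL, the kind of locus the series set out to find.

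Library totals ran from 1110755 counts in DGRP_25208 replicate 1 to 12758783 in DGRP_28206. A count of 0 allows up to 2.70 CPM in the first and 0.235 CPM in the second, taking 3 counts as the limit, and covers counting error only. The mean count of an X region, divided by that of a region on the large autosome arms, ran from 0.708 to 1.08 between libraries. Regions are named by their dm3 position, because no annotation of that build was used here. Gene names, exons, introns and marker genes of the disc are therefore not given, and the tissue label was not tested. In a bulk tissue, fewer cells with an open region and a less open region in every cell cannot be told apart. No DNA sequence of the lines was examined, so whether few reads at a region stand for closed chromatin was not tested.

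Members had an SD from 2.60 log2 units down to 0.759395, with a median of 0.908 against 0.351 over the 12052 regions that passed the first steps. The last regions inside the limit were 2L:15056476-15056782, 3L:12018271-12018897 and 2L:22663472-22664188, with SDs of 0.760064, 0.759648 and 0.759395. The first outside were 3L:10187769-10188393, 2R:8074841-8077642 and 3R:3916023-3916607, with 0.759267, 0.758856 and 0.758243. The limit thus cuts a continuous range, and regions on either side of it differ little.

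The members lay on every arm, 65 of them on X, 61 on 3R, 64 on 3L, 49 on 2R, 59 on 2L and 2 on chromosome 4. Their shares per arm were near those of the 12052 regions, for example 21.7% on X against 18.4%. Of the members, 9.73% of those on the 5 large arms lay within 1 Mb of the centromere-side end of the regions on their arm, against 2.28% of the 12052. The median length was 564 bp, from 208 to 2552, against 538 bp. They were of lower level, with a median mean of 3.68 log2 CPM against 4.53, and low counts carry more counting error.

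Libraries of the same line were alike over the members. The share of variance that lay between lines was computed for each region as an intraclass correlation over the 8 lines with 2 libraries, after the mean of each suffix group had been subtracted. It was 0.758 in the median over members, with quartiles of 0.483 and 0.881. The median was 0.286 over the 12052 regions and -0.36 over the 300 regions of largest SD that did correlate with the reference region. Those 300 shared the profile of the reference region by choice, so their value is no independent standard. Of the members, 124 (41.3%) exceeded 0.8, against 4.62% of the 12052 regions. A value below 0 was found in 18 members (6%), against 24.9% of the 12052. A larger total spread leaves more room for a share between lines, so members were also chosen a second time from only the 15 libraries of lines with 1 library. Those 300 regions, 179 of them shared with the members, had a median share of 0.660 in the other 16 libraries, against 0.253 over all regions that passed the first steps there.

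**Figure D1:**
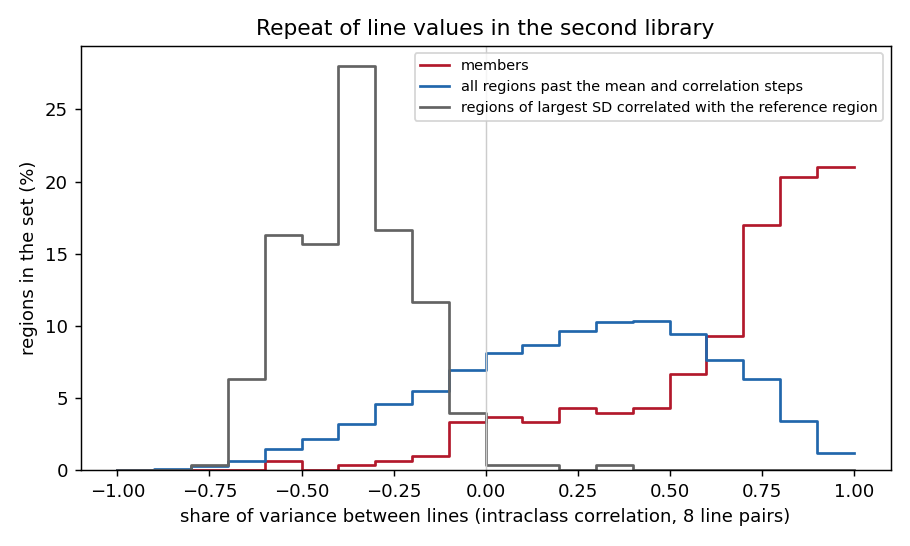
Share of variance between lines (intraclass correlation over 8 lines with 2 libraries, x axis) against the percentage of regions per bin (y axis) for the members, all regions that passed the mean and correlation steps, and the most variable regions that correlated with the reference region. The members pile up above 0.8, with a median of 0.758, and the regions that followed the reference lie almost wholly below 0.

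When each of the 16 libraries was correlated with the 30 others over the 300 members, after each member was centred, 16 of 16 were most like the other library of their own line. The correlation within a line ran from 0.581 in DGRP_28262 to 0.805 in DGRP_29652 with a median of 0.684, while the best match with another line ran from 0.0901 to 0.472. Over the 12052 regions only 7 of 16 libraries were most like their own line, over all 30774 regions 2 of 16, and over the 300 regions that followed the reference 0 of 16. Over the 300 regions chosen without these 16 libraries it was 15 of 16, with a median correlation of 0.609 within a line and 0.216 for the best match with another line. These correlations run across regions, which are not independent replicates, and carry no test. The 300 regions that followed the reference were chosen by their correlation with it, positive in all of them, so they share its profile by choice.

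**Figure D2:**
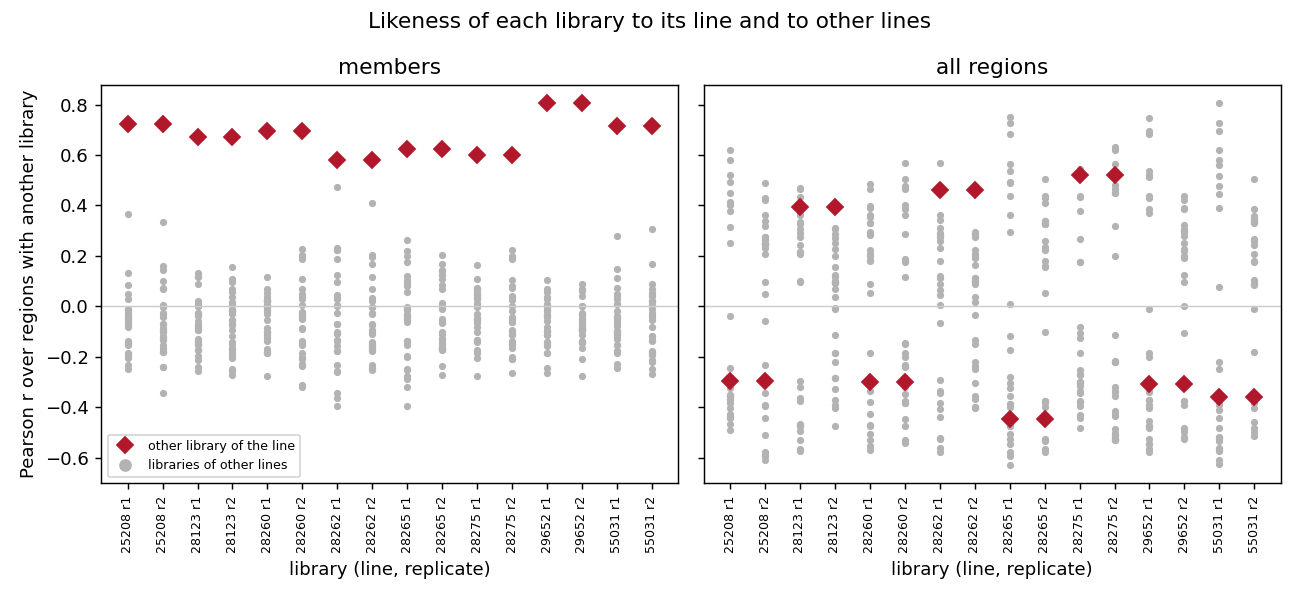
Pearson's r (y axis) of each of the 16 libraries (x axis) with the other library of its line, as red diamonds, and with every library of other lines, as grey points, over the members (left) and over all regions (right). Over the members the diamonds, at 0.581 to 0.805, lie above every grey point, which reach 0.472, and over all regions most do not.

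The same held region by region. The libraries of a line differed by a median of 0.487 log2 units over the members, against 0.840 for a library without and a library with the suffix from unlike lines. They lay at least 4-fold apart in 2.83% of 2400 comparisons, against 16.5% of 16800 between unlike lines. A library at least 4-fold below the median of a member had its partner there too in 60.2% of cases, against 6.61% between unlike lines. For libraries at least 4-fold above the median the shares were 47.2% and 3.77%. In no line was 1 library 4-fold above and the other 4-fold below, which occurred in 9 of the 16800 comparisons between unlike lines. The members were chosen for their spread over these libraries, so wide differences between unlike lines are partly built in. The comparisons pool members, are given for members only and carry no test.

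Some members had separate low and high ranges of libraries. A member was called split where the sorted values of the 31 libraries had a gap of at least 2 log2 units, found without the line names. This was so for 49 of 300 members (16.3%), beside 1.14% of all regions. The members were chosen for their spread, so nothing is read from that contrast. In 37 split members the low side held 1 to 3 lines, in 8 the high side held 1 to 3 lines, and in 4 each side held at least 4 lines. The other 251 members were graded, with no gap of that size.

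Where a line had 2 libraries, both nearly always lay on the same side of the gap. Over the 49 split members this was so in 97.7% ± 4.93 (SD, n = 8 lines) of cases, against 88.8% for pairs from unlike lines. Most gaps set a single library apart, where unlike pairs also share a side. In 26 of the 49 a single low library was the only library of its line, so all pairs shared a side by construction. Members with more libraries on both sides are therefore more telling. Over the 15 members with at least 2 libraries on each side the shares were 99.2% and 70.1%, and over the 5 with at least 3 they were 100% and 57.9%. Among the 5 are the adjacent 3R:7808282-7808722 and 3R:7808902-7809348, which correlated at r = 0.97 and are not separate cases.

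All 4 members with at least 4 lines on each side kept both libraries of each line on the same side. The most variable member, 3L:15290369-15291043, had 14 libraries of 10 lines between -0.42 and 3.12 log2 CPM and 17 libraries of 13 lines between 5.69 and 7.78, with a median of 5.83. The low libraries held 2 to 44 counts and the high ones 74 to 1821. Within the low side the libraries of DGRP_28265 still differed by 2.37 log2 units, with 22 and 2 counts. The low lines were DGRP_25174, DGRP_25187, DGRP_25193, DGRP_28222, DGRP_28224, DGRP_28260, DGRP_28265, DGRP_29651, DGRP_29652 and DGRP_55031, and no line was on both sides. The nearest region, 2381 bp away between midpoints, had r = -0.01 with it over 31 libraries and ran from 0.56 to 3.12 log2 CPM.

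Adjacent members 3R:7808282-7808722 and 3R:7808902-7809348 were almost without reads in 5 lines. The 7 libraries of DGRP_25208, DGRP_28153, DGRP_28243, DGRP_29652 and DGRP_55026 held 0 to 4 counts in the first region and 0 to 7 in the second. The other 24 libraries held 36 to 261 counts in the first, or 3.17 to 5.43 log2 CPM, and 39 to 299 in the second, or 3.36 to 5.05 log2 CPM. The regions correlated at r = 0.97 over the 31 libraries and lie 623 bp apart between midpoints.

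The fourth member of this kind, 2L:5805093-5805826, was lowered but not empty in 5 lines. It stood between 1.95 and 3.34 log2 CPM in both libraries of DGRP_28123 and DGRP_28265 and in those of DGRP_25174, DGRP_28153 and DGRP_29651, with 24 to 63 counts. The other 24 libraries stood between 5.44 and 6.56. The nearest region, 3348 bp away, ranged only from 4.94 to 5.80.

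**Figure D3:**
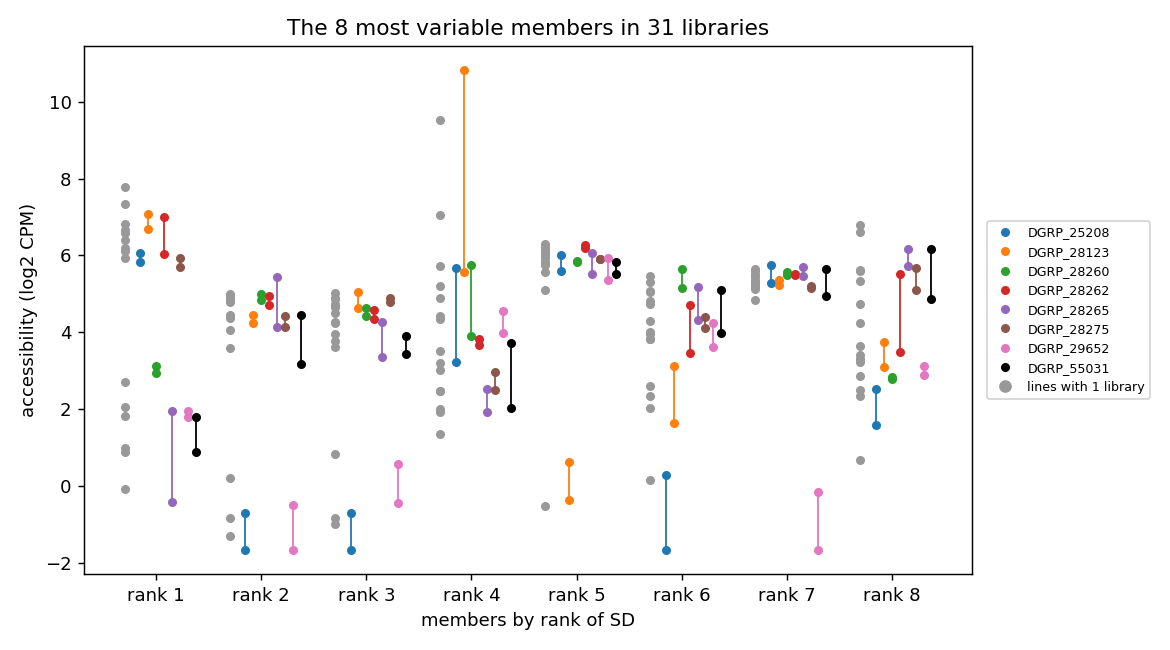
Log2 CPM (y axis) of each of the 31 libraries, 1 point each, for the 8 members of largest SD in order of SD (x axis), with the 2 libraries of a line in 1 colour and joined, and the lines with 1 library in grey. The libraries of rank 1, 3L:15290369-15291043, fall into a range up to 3.12 and a range from 5.69, and both points of each joined pair lie in the same range.

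Where 2 libraries were low, they belonged to the same line. In 9 split members exactly 2 libraries were low, and in 9 of 9 these were both libraries of 1 line. Line DGRP_29652 accounted for 3, DGRP_28123 for 2, and DGRP_25208, DGRP_28260, DGRP_28265 and DGRP_55031 for 1 each. Among split regions that were not members, 10 of 15 with 2 low libraries had both from 1 line.

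The widest gap of all was at 2R:3552949-3553594. DGRP_29652 had 3 and 0 counts there, or -0.16 and -1.68 log2 CPM, and the other 29 libraries stood between 4.84 and 5.74 with at least 43 counts. At 2R:10761171-10761797 both libraries of DGRP_28123 and the library of DGRP_25194 held 3 to 6 counts, and the other 28 held 53 to 963, or 5.11 to 6.29 log2 CPM.

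In 27 split members a single library was low, and in 26 of these it was the only library of its line, so that the low value could not be checked in a second library. Line DGRP_28222 was low alone in 11, DGRP_25185 and DGRP_28153 in 4 each and DGRP_25194 in 3. At 3L:1913433-1913892 DGRP_25185 had 1 count and the other 30 libraries stood between 4.01 and 5.56 log2 CPM. At X:1066926-1067271 DGRP_28153 had 0 counts, with the others between 2.87 and 4.17. At 2L:8133996-8134339 DGRP_29651 had 0 counts, with the others between 2.84 and 4.10. The library totals of these 3 lines were 3894190, 10542406 and 7613320 counts.

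The remaining member with 1 low library was 2L:5029196-5029762. The shallowest library, DGRP_25208 replicate 1, had 1 count there and the other library of the line 56, or 0.28 and 4.09 log2 CPM. Among the 140 regions outside the members with a single low library, the low library was the shallowest one in 100, and 118 were in lines with 2 libraries. Of the members, 14 held a count of 0 in some library, with 16 such values in all and 3 of them in the shallowest library.

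High sides were rarer, and in the few members that had one they were less even within a line. The limit of 3 log2 CPM on the mean passes regions high in most libraries more readily than regions low in most. The rarity of high sides is thus partly built in. Member 2R:6838362-6839561, for example, had a mean of 3.12 and a median of 2.93 log2 CPM. Of the 8 members with a high side of 1 to 3 lines, 7 were high in replicate 2 of DGRP_28262 alone. These 7 correlated with each other at r of at least 0.93 over the 31 libraries, so they are not separate cases. In each of the 4 named here the next library was replicate 1 of the same line. At 2R:6838362-6839561 the line had 8.89 and 5.62 log2 CPM, or 2317 and 470 counts, and the other 29 libraries 1.59 to 4.26. At X:3648908-3650159, X:14201014-14202872 and 3R:6633570-6635304 the line had 7.42 and 5.01, 7.83 and 5.49, and 7.67 and 5.38. Both libraries thus stood above all other lines, but a gap of more than 2 log2 units separated them from each other.

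The eighth, 2R:936716-938864, reached the highest value of any named member. DGRP_28123 replicate 2 had 10.83 log2 CPM (8949 counts) and DGRP_28153 9.52 (7727 counts), followed by DGRP_25186 at 7.05 (1151 counts), while the median was 3.71 and the lowest library, DGRP_29651, had 1.35 (17 counts). DGRP_28123 replicate 1 had only 5.57 (301 counts), a difference of 5.26 log2 units between the libraries of that line and the largest among the members. Member 3L:24462009-24463869 on another arm followed the same order (r = 0.93 over 31 libraries), with 8.74 in DGRP_28123 replicate 2, 7.51 in DGRP_28153, 6.29 in DGRP_25186 and 3.85 in DGRP_28123 replicate 1. The libraries that were high at both were thus the same, and in DGRP_28123 only 1 of 2 libraries was high.

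The other named members of large SD were graded. At 3L:23573621-23574094 values ran from -1.68 to 5.64 with a median of 4.10, and the lowest 3 libraries were both of DGRP_25208, with 0 and 3 counts, and DGRP_29651, with 6. At 3R:24310290-24312022 they ran from 0.67 in DGRP_25185 (5 counts) to 6.79 in DGRP_25187 (785 counts) with a median of 3.65. The largest difference within a line there was 2.04, in DGRP_28262.

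Differences between lines were tested over all regions with edgeR's quasi-likelihood F-test. All 300 members were tested, and 17 were called at a Benjamini-Hochberg adjusted p below 0.05, beside 0.0942% of the 30773 regions tested (29 calls). At an unadjusted p below 0.05 there were 252 members (84.0%), against 7.68% of all regions. These p-values share their values with the choice of members and are a description. The 8 lines with 2 libraries gave the test its 7 residual degrees of freedom. The count was 111 in the 16 libraries of these lines alone (replicate block), 267 with the reference region as covariate and 0 with the X to autosome ratio, where 239 members had an unadjusted p below 0.05 by edgeR. It ran from 0 to 24 when 1 library was left out: it was 0 without either library of DGRP_25208 or without replicate 2 of DGRP_28123, DGRP_29652 or DGRP_55031 (240 to 254 members at an unadjusted p below 0.05 by edgeR), 1 without replicate 1 of DGRP_29652 or either library of DGRP_28275, 6 without replicate 1 of DGRP_28123 and 8 without replicate 2 of DGRP_28265.

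The smallest adjusted p among members, 0.00934 by edgeR, was that of 3L:15290369-15291043, described above as low in 10 lines and high in 13. The next 4 members all had 0.0153 by edgeR. At 2L:22675596-22676596 values ran from 3.74 to 8.67 with a median of 6.32, and DGRP_25193 with 3151 counts stood 1.12 above the next library. At 3L:22093911-22094492 they ran from 2.32 to 6.45 with a median of 3.93, in a graded series with DGRP_28222, DGRP_28262 and DGRP_25193 at the top.

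The other 2 of these members, 2L:20106601-20107049 and 2L:20114919-20115452, lie in a stretch of 13902 bp on 2L (20104477 to 20118378) that held 5 members among its 8 regions. The first was low in 6 lines: both libraries of DGRP_28262 had 1.46 and 1.54 log2 CPM, and DGRP_28222, DGRP_28202, DGRP_25186, DGRP_25187 and DGRP_25194 had 0.77 to 2.79, while the median was 5.03. In the second the same 7 libraries were the highest, at 5.38 to 5.95, with every other library at or below 3.45. The 5 members of the stretch correlated at r = -0.84 to 0.90 over the 31 libraries. Opposite patterns thus stood within the same stretch and followed the same lines.

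Some members lay close to each other. A total of 91 members lay in 41 runs in which each was at most 10000 bp from the next, and 209 lay alone. The run with the most members, 3R:27899187-27904593, held 6 members and no other region in 5407 bp, with starts 916 to 1052 bp apart. Their mean was 2.09 and 2.35 log2 CPM in DGRP_55031 and 4.99 in the median library, with 6.23 in DGRP_28260 replicate 2. The 6 correlated at r of at least 0.96 and had a median share of variance between lines of 0.932.

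Runs of 3 members lay at 2L:22660831-22664188 and 3L:5451216-5459231. The other 37 runs held 2 members each, with r from -0.33 to 0.97 and a median of 0.44. In the first run of 3 the members correlated at 0.86 to 0.94, but the median share of variance between lines was only 0.179. The members correlated at 0.61 to 0.89 in the second.

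Members far apart also moved together. Members were linked where their values correlated at 0.9 or more over the 31 libraries, a limit chosen, like the examples named from the groups, after the values had been seen. This gave 13 linked groups of at least 3 members with 88 members in all, and 10 of the groups (63 members) spread over several chromosome arms. Groups are numbered by size. The points share libraries, depth and the choice for large SD, and the groups carry no test.

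**Figure D4:**
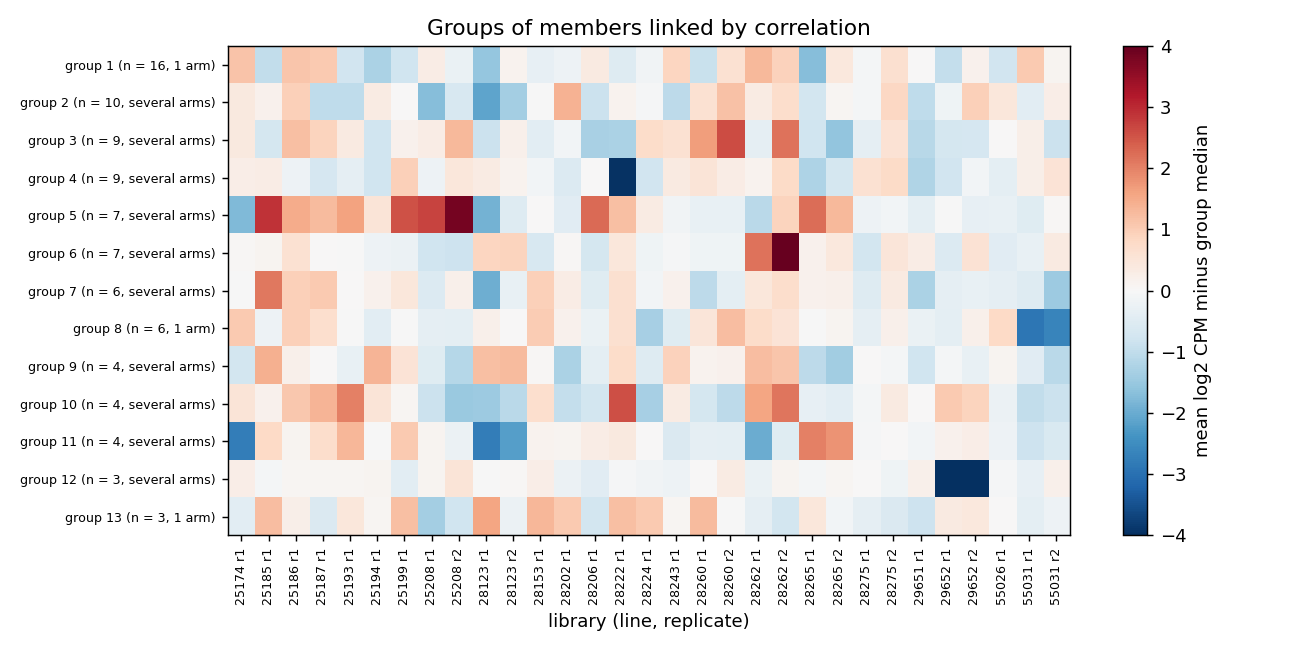
Mean level of each linked group of members (rows) in each of the 31 libraries (columns), as the difference in log2 units from the group's median library, with the colour scale ending at 4 units in each direction. Both libraries of DGRP_29652 are lowest in group 12, DGRP_28222 in group 4, and both libraries of DGRP_28262 are highest in group 6.

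Groups 3 and 4 held 9 members each and lay side by side. Group 3 members were long, with a median of 1983 bp, and group 4 members short, with a median of 417 bp. At 8 loci on 2L, 3R and X a member of each lay 2269 to 4568 bp apart between midpoints, with a median of 4494 bp. The short member lay at the higher coordinate in 5 loci and at the lower in 3. Both members together spanned 5699.5 bp in the median (3316 to 5784 bp). Examples are 2L:12559151-12561196 with 2L:12564439-12564855, and X:12825379-12827444 with X:12830691-12831162.

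The neighbours nevertheless differed in their pattern over libraries, with r between 0.34 and 0.51. Group 3 was highest in DGRP_28260 replicate 2 at 6.83 log2 CPM, DGRP_28262 replicate 2 at 6.42 and DGRP_28260 replicate 1 at 5.90. Its median library stood at 4.23 and the lowest at 2.66. The high value of DGRP_28262 did not repeat, since replicate 1 of that line stood at 3.86, below the median library. The median share of variance between lines was 0.524 in group 3 and 0.739 in group 4. Group 4 was lowest in DGRP_28222 at -0.02, followed by 2.69 in DGRP_28265 replicate 1, with a median of 3.92. Of the 11 split members in which DGRP_28222 was low alone, 8 belonged to group 4.

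Groups 5 and 11 formed a second such pattern. At 4 loci on 3R and X a member of group 5, with a median length of 1813 bp, lay 5362 to 5590 bp from a member of group 11, with a median of 763 bp. Group 5, with 7 members on 4 arms, was highest in DGRP_25208 replicate 2 at 7.06, DGRP_25185 at 6.11 and DGRP_25208 replicate 1 at 5.93, against a median library of 3.22. Group 11 was highest in both libraries of DGRP_28265, at 5.32 and 5.10, and lowest in DGRP_28123 replicate 1 and DGRP_25174, both at 0.54. Here the neighbours correlated at 0.60 to 0.71.

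Other groups followed 1 or a few lines. Group 6 held the 7 members high in DGRP_28262 described above, on 4 arms, with group means of 7.61 and 5.17 in that line and at most 3.90 elsewhere. Group 12 held 3 members on 2R, 3R and X that were lowest in both libraries of DGRP_29652, at -1.57 and -0.42 against a median library of 4.14. They are the 3 split members counted above in which only that line was low. Their correlation without those libraries was not tested. Group 10, with 4 members on 2R, 3L and X, contained 3 of the 17 members called by edgeR and was highest in DGRP_28222 at 6.80, DGRP_28262 replicate 2 at 6.37 and DGRP_25193 at 6.23.

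Group 2 had 10 members on 2L, 3L, 3R and X, all 529 to 652 bp long. It ran from 2.09 in DGRP_28123 replicate 1 to 5.59 in DGRP_28202 with a median of 4.19, and the median share of variance between lines was 0.928. Groups 7, 9 and 13 held 6, 4 and 3 members, with shares of 0.445, 0.915 and 0.395.

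The likeness of libraries of a line did not rest on the 88 linked members. Over the 212 others, 16 of 16 libraries were most like their own line. The median share of variance between lines was 0.752, and the median correlation within a line was 0.716. The best match with another line reached 0.576 there, between DGRP_28262 replicate 1 and DGRP_25186, close to the 0.589 within DGRP_28262.

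Group 1 differed from the rest. Its 16 members all lay on X, were spread from X:366745-367114 to X:20921050-20921507, and had a median share of variance between lines of only 0.0605. Their mean ran from 1.78 log2 CPM in DGRP_28265 replicate 1 to 4.80 in DGRP_28262 replicate 1, with a median of 3.49. It fell with the ratio of counts on X to the autosomes, with Pearson's r = -0.94 and Spearman's rho = -0.95 over 31 libraries, and r = -0.93 without the 2 libraries farthest from the median ratio. In 8 of 8 lines the library with the lower ratio had the higher level, by 0.387 to 2.15 log2 units. The group was picked for its likeness over these libraries, so the correlation is a description with no test. The part of the ratio in the level was not tested.

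**Figure D5:**
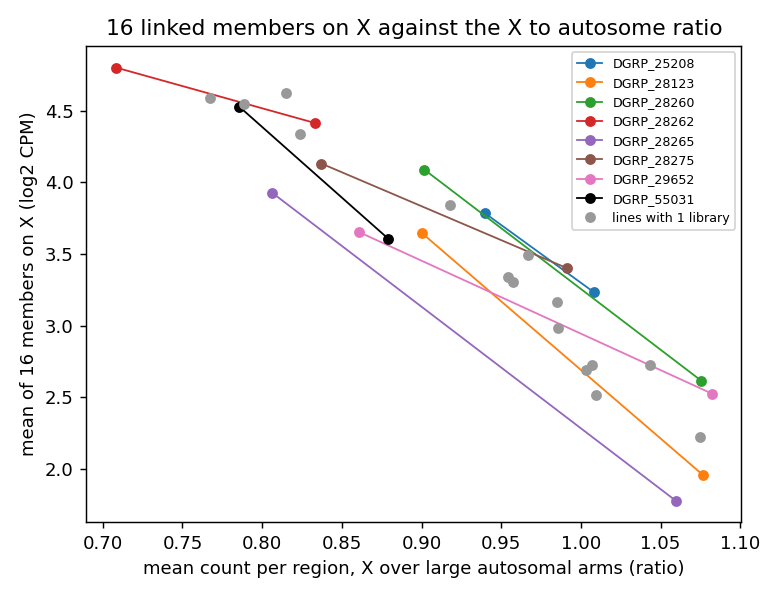
Mean log2 CPM of the 16 X-linked members of group 1 (y axis) against the X to autosome ratio of counts per region (x axis) in the 31 libraries, with the 2 libraries of a line joined. The level falls from 4.80 at a ratio of 0.708 to 1.78 at a ratio of 1.06, and all 8 joined pairs slope downwards.

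The 49 other members on X did not share this, with a median correlation of 0.17 with the ratio. Over all members, 16 had an absolute correlation of at least 0.5 with the ratio, all of them negative and on X, or 5.33% against 7.34% of the 12052 regions. With the log2 library total, 3 members had an absolute correlation of at least 0.5, or 1% against 2.75% of the 12052 regions.

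The suffix was tested by edgeR within the 8 lines, with the line as block. Of the 300 members, 1 was called as higher with the suffix at an adjusted p below 0.05, beside 0.0293% of 30710 regions, and 0 were called as lower, beside 0% of all regions. At an unadjusted p below 0.05 there were 46 members (15.3%), against 17.03% of all regions.

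The member called was 2R:14058639-14059257. Libraries without the suffix had 3.84 to 4.62 log2 CPM in the 8 lines (4.19 ± 0.265, SD, n = 8) and those with it 4.97 to 5.87 (5.42 ± 0.288, SD, n = 8), so the groups did not overlap. The difference was 1.23 ± 0.117 (SE), higher with the suffix in 8 of 8 lines, with an adjusted p of 0.0324 by edgeR. In the 15 lines with 1 library, which this test did not use, the 8 libraries without the suffix stood between 3.07 and 4.58 and the 7 with it between 3.12 and 5.96. There the groups overlapped. By edgeR the member was not called when any 1 of the 8 lines was left out, with an adjusted p of up to 0.151, and 32 to 57 members then had an unadjusted p below 0.05.

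Members at which the libraries of a line disagreed most were 2R:936716-938864, 3L:24462009-24463869, 2L:5029196-5029762 and 2R:6838362-6839561, all described above, and 3R:2668519-2669477. The last was high in DGRP_25185 (6.19 log2 CPM, 284 counts) and in DGRP_28262 replicate 1 (5.65, 482 counts), while replicate 2 of that line had 2.49 (26 counts), below the median of 2.81. In 4 of these 5 members the disagreement was in DGRP_28262 or DGRP_28123.

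Most pairs of unlike lines had little in common over the members. Across 457 pairs of libraries from unlike lines the correlation had a median of -0.05 and ran from -0.40 to 0.58. The most alike were DGRP_25199 and DGRP_25185 at 0.58, each with 1 library, which shared 9 members at least 4-fold above the median and 4 at least 4-fold below. DGRP_25186 correlated with both libraries of DGRP_28262, at 0.47 and 0.41, and DGRP_28206 with both of DGRP_25208, at 0.37 and 0.33. The correlation of DGRP_25199 with DGRP_25185, 0.58064, was about as high as the lowest within a line, 0.580502 in DGRP_28262, and all other pairs from unlike lines lay below that.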

How the data were processed

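Accessible chromatin was measured by ATAC-seq in the 31 DGRP libraries. The other 15 of the 46 samples are not analysed here. The authors deposited whole read counts for 1 merged set of regions, with no normalization. Per the submitters' processing notes the tools were MACS2, Bowtie2, DESeq2 and featureCounts and the build dm3, with no versions or roles. The sources used here do not give how duplicate reads or reads with several matches were treated, and either can move counts in repeated sequence.

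Counts were turned into log2 CPM by column totals with a prior count of 2 scaled to depth, and members were found by the rule above. They and the lists were chosen with earlier results of these data known. Whole-table tests used edgeR 4.0.16 (TMM, robust quasi-likelihood F-test, Benjamini-Hochberg), for regions reaching the CPM of 10 counts at the median library in at least 2 libraries. Line differences were fitted in 31 libraries with a suffix term, and the suffix in the 16 libraries of 8 lines with the line as block. The shared line name pairs the libraries. DESeq2 and limma voom were alternatives, as were other filters, covariates, scalings and membership limits. The scripts were tested on simulated data.

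Named regions were the 8 members of largest SD, up to 5 split members per class by gap, the 5 with the smallest line p, those called with the suffix, 3 on either side of the SD limit, the 5 with the largest difference within a line, and the runs with most members (4, since 37 runs of 2 members tied for the next place).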

Additional observations from a re-analysis of the deposited data

Results flagged for a closer look

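Line DGRP_28262 stood apart from the other 7 lines with 2 libraries in 2 of 4 sets of 8 values examined, where the gap to the nearest other line was large against the whole range, a rule that chance meets in about 1 in 20 sets. Its libraries lay at least 4-fold apart at 26 members, against 2 to 13 in the other lines. Both of its libraries lay on the same side of the gap in 85.7% of the 49 split members. The split members at which they lay on opposite sides were the 7 of the linked group that was highest in both of its libraries. The same 7 also count among the 26, so the 2 sets are not independent and the rate of 1 in 20 does not apply to them together.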

How the results depend on the processing

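The count of members called between lines moved most, from 17 to 111 in the 16 libraries of the 8 lines (replicate block), 38 with no suffix term (no replicate block), 261 by DESeq2, 8 by limma voom, 37 with a mean count of at least 50, 28 when scaled by totals without TMM, 267 with the reference region and 271 with the first principal component as covariate, 0 with the X to autosome ratio (239 at an unadjusted p below 0.05 by edgeR) and 1 at an adjusted p of 0.01. It was 0 to 24 with 1 library left out. The cause was not tested. The 5 members named for the smallest p stayed below 0.05 in 16 to 19 of 26 settings. For the suffix the count moved from 1 to 15 by DESeq2, 2 with no line block (no replicate block) and 18 with the reference region as covariate, and was 0 with any line left out, where 1 to 3 of all regions were called. The count of split members moved from 49 to 107 at a mean of 2 or more, 17 at 4 or more, 27 of 100 members, and 107 and 20 at gaps of 1 and 3. It was 44 to 50 with 1 line left out. Agreement within lines moved to 92.5% at a mean of 2 or more, against 86.9% for unlike pairs, and was 97.2% to 99.4% with 1 line left out. The median share between lines moved from 0.758 to 0.692 at a mean of 4 or more, 0.809 and 0.615 in the 100 and 1000 regions of largest SD, 0.702 with no suffix mean subtracted, and 0.660 when chosen in the 15 libraries of lines with 1. It was 0.732 to 0.761 with 1 line left out. The choice in 15 libraries and the settings without linked members, X or the shallowest library were added after seeing the data. Other settings for splits, agreement and shares stayed within their limits. Depth limits the low values: a count of 0 in the shallowest library allows 2.70 CPM.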

Other observations

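The extremes of the members were spread unevenly over the libraries. The library of DGRP_25185 was the highest of the 31 at 43 members and at least 4-fold above the median at 26. DGRP_28123 replicate 1 was the lowest at 33 members, followed by DGRP_25208 replicate 1, the shallowest library, at 26 and DGRP_28222 at 20. DGRP_28206, the deepest library, was at least 4-fold below the median at 0 members and 4-fold above it at 6.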
